A study of Mus musculus with 8 samples.

Results

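RXR-Nur77 sites without FGFR1 in retinoic acid (RA) were 1168 of the 7126 places at which a peak of RXR overlapped a peak of Nur77 in RA-treated mouse cells, and 1168 of all 15224 RXR peaks in RA. A site was an RXR peak that shared at least 1 bp with a Nur77 peak and shared no base with an FGFR1 peak in either of 2 FGFR1 libraries from RA. The sites were thus chosen by the measured peak calls of these 4 libraries, so overlaps among them in RA are a description and carry no test. All cells were E14Tg2a, a mouse embryonic stem cell line, used between passages 37 and 40. Neuronal cells (NCs) came from monolayers without leukemia inhibitory factor (LIF) that received 1 µM RA for 48 h, and pluripotent cells (ESCs) were kept in LIF. Chromatin immunoprecipitation and sequencing (ChIP-seq) covered FGFR1, RXR and Nur77 in both states and the histone variant H3.3 in RA, and the titles name RXR as RXRα. There were 2 libraries of FGFR1 in RA, called experiment 1 and experiment 2 here, made with the same antibody. The other 6 groups had 1 library each, so no comparison between groups could be tested. Chromatin came from pooled plates of 1 cell line, and peak lists hold no expression values with which the cell state could be checked.

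RXR is the retinoid X receptor, a nuclear receptor that binds DNA as a dimer with many other nuclear receptors. Nur77 is an orphan nuclear receptor of the immediate early class that binds DNA alone, as a pair with itself, or with RXR. FGFR1 is a receptor tyrosine kinase of the cell surface that is also found in the nucleus. It has no DNA-binding domain of its own and is known to reach chromatin with partners such as RXR, Nur77 and the coactivator CBP. H3.3 is a histone variant laid down outside DNA replication at active genes and regulatory regions. The sites described here are those at which both receptors were called in RA and their nuclear partner was not.

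Most of the sites lay on a simple repeat, and 6 of them are shown to make this visible, read from the GRCm38 assembly on the + strand. Capitals mark the longest run in which purines and pyrimidines alternate at every base, or, at Ntrk3, the longest tandem repeat, and the Rps6kb1 site had neither at 20 bp or more. The Agxt2 site is chr15:10372909-10373080 in an intron, the Creb1 site chr1:64580605-64580846 in an intron, and the Muc2 site chr7:141698939-141699116 beside its start. The Map2 site is chr1:66252576-66252708, the Ntrk3 site chr7:78475231-78475376 in an intron, and the Rps6kb1 site chr11:86544308-86544478 near a start.
Agxt2 intron: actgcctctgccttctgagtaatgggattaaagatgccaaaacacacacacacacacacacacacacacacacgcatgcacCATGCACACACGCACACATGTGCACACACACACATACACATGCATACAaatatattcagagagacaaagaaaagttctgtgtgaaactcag
Creb1 intron: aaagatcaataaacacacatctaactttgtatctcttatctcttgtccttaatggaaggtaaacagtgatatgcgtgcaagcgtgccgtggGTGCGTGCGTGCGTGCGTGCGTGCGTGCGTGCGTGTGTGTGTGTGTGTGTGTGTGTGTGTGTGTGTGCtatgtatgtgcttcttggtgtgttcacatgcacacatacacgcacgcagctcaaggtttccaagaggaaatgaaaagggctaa
Muc2 promoter: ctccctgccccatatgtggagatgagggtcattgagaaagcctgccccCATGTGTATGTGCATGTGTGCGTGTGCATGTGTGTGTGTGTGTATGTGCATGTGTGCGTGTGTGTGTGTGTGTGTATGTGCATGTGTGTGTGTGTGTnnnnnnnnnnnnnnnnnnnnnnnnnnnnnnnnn
Map2 promoter: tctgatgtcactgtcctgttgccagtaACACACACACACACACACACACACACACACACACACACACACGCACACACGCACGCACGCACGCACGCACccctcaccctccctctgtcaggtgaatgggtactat
Ntrk3 intron: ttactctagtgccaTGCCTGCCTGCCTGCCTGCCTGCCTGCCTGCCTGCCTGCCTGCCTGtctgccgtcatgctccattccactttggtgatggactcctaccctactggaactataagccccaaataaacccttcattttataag
Rps6kb1 promoter: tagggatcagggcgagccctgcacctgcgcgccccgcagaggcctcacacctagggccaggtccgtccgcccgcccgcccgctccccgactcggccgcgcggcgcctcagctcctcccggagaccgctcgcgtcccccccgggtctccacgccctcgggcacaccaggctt

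The alternating run was 48 bp long at Agxt2, 68 bp at Creb1, 97 bp at Muc2 and 70 bp at Map2, and the tandem repeat at Ntrk3 was 46 bp long. At Muc2 the run ended at unknown bases of the assembly, written n. The Rps6kb1 site had 77.2% G and C and a longest alternating run of 7 bp.

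A run of 20 bp or more in which purines and pyrimidines alternate, called a tract below, was present in 824 of the 1168 sites, 70.5% (95% interval 67.8 to 73.2), against 45.2% of all RXR peaks in RA. Runs of this kind are mostly repeats of C and A, and are known in general as sequences that can take a left-handed helix. The interval is an exact Clopper-Pearson interval, as are those below, and covers counting error only. Sites at which FGFR1 was called in experiment 1 alone had tracts as often, in 3042 of 4351 (69.9%, 68.5 to 71.3). Sites with FGFR1 in both experiments had them in 34 of 1515 (2.24%, 1.56 to 3.12), and RXR peaks without Nur77 in 36.8%. Tracts were present in 21.1% of the FGFR1 peaks of experiment 1 and in 1.26% of those of experiment 2. The part of this gap between the FGFR1 libraries in the makeup of the sites was not tested. Among the other lists, tracts were in 40.1% of Nur77 and 49.3% of H3.3 peaks in RA. In LIF they were in 51.7% of FGFR1, 24.9% of RXR and 35.5% of Nur77 peaks. The stated peak calling used no input library, so signal at simple repeats could not be set against input DNA.

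Tandem repeats with a unit of up to 6 bases reached at least 20 bp in 742 of the 1168 sites. The unit was AC, with its complement, in 622 of these 742 (83.8%), compared with 2046 of 2996 repeats (68.3%, 66.6 to 70.0) at sites with FGFR1 in experiment 1 alone. Other units, some with CG and some without, thus made up less of the repeats at sites without FGFR1, with peaks of all strengths pooled. The groups also differed in RXR peak strength, as given below, and the part of strength in these shares was not tested. The unit ACGC made up 27 of 742 (3.64%) against 320 of 2996 (10.7%, 9.60 to 11.8), and ACACGC made up 25 (3.37%) against 208 (6.94%, 6.06 to 7.91). The AGGC repeat, seen at Ntrk3, was the unit of 20 sites (2.70%) against 170 (5.67%, 4.87 to 6.56). Where there was a tract, the RXR summit was inside it at 523 of 824 sites (63.5%, 60.1 to 66.8) and within 20 bp of it at 674 (81.8%, 79.0 to 84.4). With FGFR1 in experiment 1 alone it was inside at 2136 of 3042 (70.2%, 68.6 to 71.8) and within 20 bp at 2509 (82.5%, 81.1 to 83.8).

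**Figure D1:**
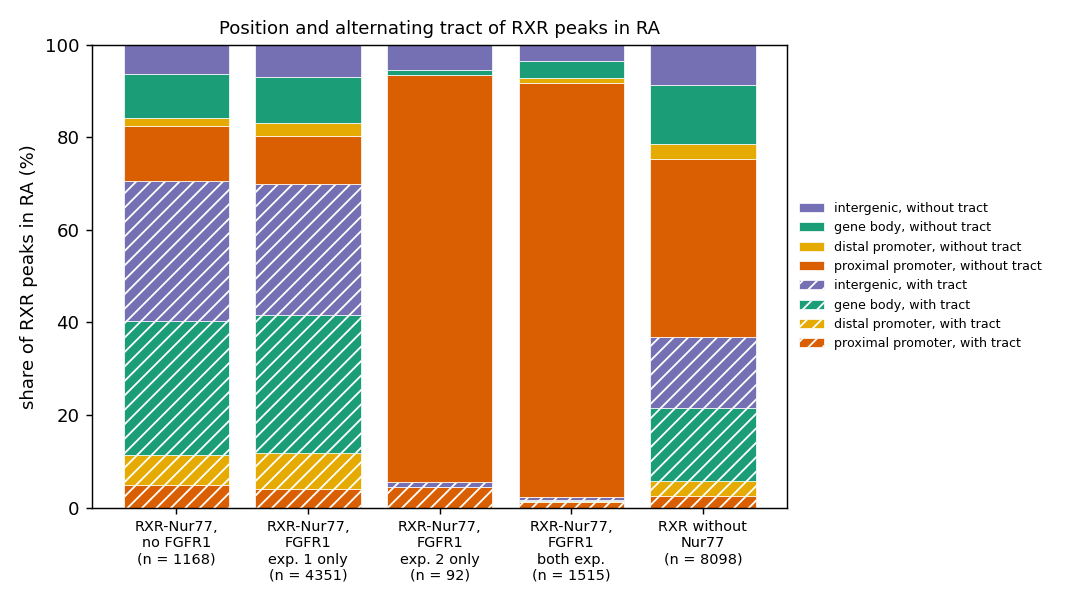
Share of RXR peaks in RA (%) by genomic position (colours) and by presence of an alternating tract of at least 20 bp (hatched), in 5 classes of RXR peaks with their numbers. The 1168 sites without FGFR1 and the 4351 with FGFR1 in experiment 1 alone were divided alike, whereas 90.7% of sites with FGFR1 in both experiments lay in proximal promoters.

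By position, 449 of the 1168 sites lay in gene bodies (38.4%, 35.6 to 41.3), 426 between genes (36.5%, 33.7 to 39.3) and 98 in distal promoters (8.39%, 6.86 to 10.1). Over all RXR peaks in RA these shares were 29.95%, 26.0% and 7.17%. Proximal promoters, within 1000 bp of a transcript start, held 195 (16.7%, 14.6 to 18.96), against 36.9% of all RXR peaks in RA. The share was 14.5% (13.5 to 15.6) with FGFR1 in experiment 1 alone and 90.7% (89.1 to 92.1) with FGFR1 in both. Tracts were present in 352 of the 426 intergenic sites, 339 of the 449 in gene bodies, 77 of the 98 in distal promoters and 56 of the 195 in proximal promoters. A median site was 24395 bp from the nearest start of a protein-coding gene, had 51.7% G and C, and had 68.1% of its bases in the repeat-masked part of the assembly. With FGFR1 in experiment 1 alone these medians were 22406 bp, 54.0% and 75.3%. Coding sequence was touched by 102 sites (8.73%) and untranslated exons by 72 (6.16%), against 17.3% and 22.3% of all RXR peaks in RA. With FGFR1 in experiment 1 alone these shares were 8.46% and 5.91%, so they were not particular to the sites. The sites were spread out: 11 neighbouring pairs lay within 10000 bp of each other, and every chromosome but M held at least 1. Chromosome 11 held the most, 86 (15.3% of its RXR-Nur77 sites), and chromosome 14 had the highest share, 62 of 243 (25.5%).

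The peaks were weaker than at sites with FGFR1 in experiment 1 alone and about as strong as at sites with FGFR1 in both. The rule used peak calls in these libraries, so the strengths are a description. MACS2's −log10 p, the peak caller's measure of how far the fragments at a summit exceed the local background, had a median of 11.55 for RXR at the 1168 sites (middle 50% from 9.51 to 14.99, highest 54.1). It was 15.9 (11.1 to 25.2) with FGFR1 in experiment 1 alone and 10.7 (8.82 to 13.1) with FGFR1 in both. The Nur77 peak had a median −log10 p of 11.9 (9.79 to 15.8), against 17.4 and 11.2 in these groups. A median site rested on 9 fragments at the RXR summit and 11 at the Nur77 summit. RXR and Nur77 summits were a median of 20 bp apart, and 1086 sites (93.0%) had them within 100 bp.

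The share of RXR-Nur77 sites that lacked FGFR1 was 16.4% (15.5 to 17.3) over all strengths. With a tract, it was 184 of 445 (41.3%, 36.7 to 46.1) at an RXR −log10 p of 8 to 10, 346 of 1130 (30.6%, 27.9 to 33.4) at 10 to 15 and 35 of 727 (4.81%, 3.38 to 6.63) at 30 or more. Without a tract it was 153 of 993 (15.4%, 13.2 to 17.8) at 8 to 10 and 0 of 129 at 30 or more, where the interval reached 2.82%. From 8 upward, stronger sites lacked FGFR1 less often in these libraries, which is a description of peak calls that the rule itself used. At 5 to 8 the share was 34 of 83 (41.0%, 30.3 to 52.3) with a tract and 79 of 477 (16.6%, 13.3 to 20.2) without, near the shares at 8 to 10. Among all RXR peaks in RA, 46.8% overlapped Nur77 and 35% lacked FGFR1 in both experiments, values that the rule itself used. Experiment 1 set the number of sites: without its list 5519 sites had no FGFR1, while without experiment 2 there were 1260. In the set without experiment 1, H3.3 was at 55.8%, RXR in LIF at 65.8%, Nur77 in LIF at 60.9% and FGFR1 in LIF at 46.6% of sites.

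**Figure D2:**
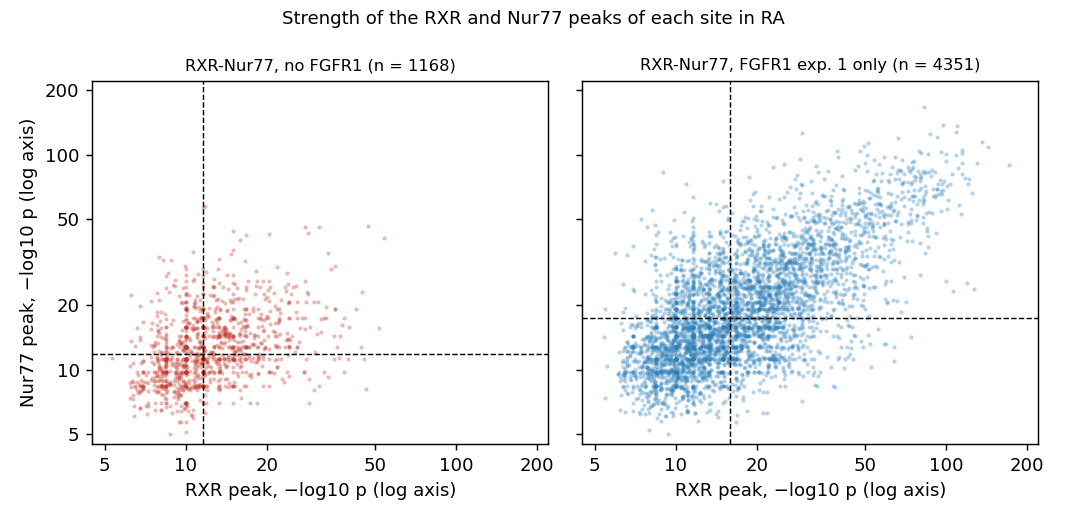
RXR against Nur77 −log10 p in RA, each point a site, on log axes, for the 1168 sites without FGFR1 (left) and the 4351 with FGFR1 in experiment 1 alone (right), with dashed lines at the medians. The medians were 11.55 and 11.9 on the left and 15.9 and 17.4 on the right, and the highest RXR value was 54.1 on the left and 172 on the right.

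FGFR1 was close to some of the sites without touching them. The nearest FGFR1 peak was a median of 13632 bp away in experiment 1 and 85835 bp away in experiment 2. It lay within 200 bp of 116 sites (9.93%, 8.28 to 11.8) and within 1000 bp of 199 (17.0%, 14.9 to 19.3), whereas 529 (45.3%, 42.4 to 48.2) had one within 10000 bp. Just inside the rule, 9 sites had an FGFR1 peak less than 10 bp away, with RXR −log10 p of 6.34 to 19.4 (median 8.39), and 5 of them were in proximal promoters. Just outside it, 9 sites overlapped FGFR1 by 10 bp or less, with values of 7.12 to 11.6 (median 8.37), and 6 were in promoters. No site on either side had a tract.

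H3.3, which the rule did not use, was called at 252 of the 1168 sites (21.6%, 19.2 to 24.05), against 33% of all RXR peaks in RA. It was called at 2827 of the 4351 sites with FGFR1 in experiment 1 alone (65.0%, 63.5 to 66.4) and at 814 of the 1515 with FGFR1 in both (53.7%, 51.2 to 56.3). RXR peaks without Nur77 had it in 13.7%. The first 2 classes were also compared within bins of RXR peak strength. Among sites with a tract and an RXR −log10 p of 10 to 15, H3.3 was at 72 of 346 (20.8%, 16.7 to 25.5) without FGFR1 and at 447 of 772 (57.9%, 54.3 to 61.4) with it. At 30 or more it was at 10 of 35 (28.6%, 14.6 to 46.3) and 634 of 689 (92.0%, 89.7 to 93.9). That bin has no upper limit, and its RXR values reached 54.1 without FGFR1 and 172 with it, so strength was not alike there. The part of strength in the H3.3 shares was not tested. Only below a value of 8 did the intervals of sites with a tract overlap, at 9 of 34 and 18 of 47. When every list was limited to its 10634 strongest peaks, 42.3% of the resulting sites had H3.3. The H3.3 library was the shallowest, with 1.27 background fragments per kb against 1.87 for RXR in RA and up to 7.09 in the others, and the part of depth in these shares was not tested.

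**Figure D3:**
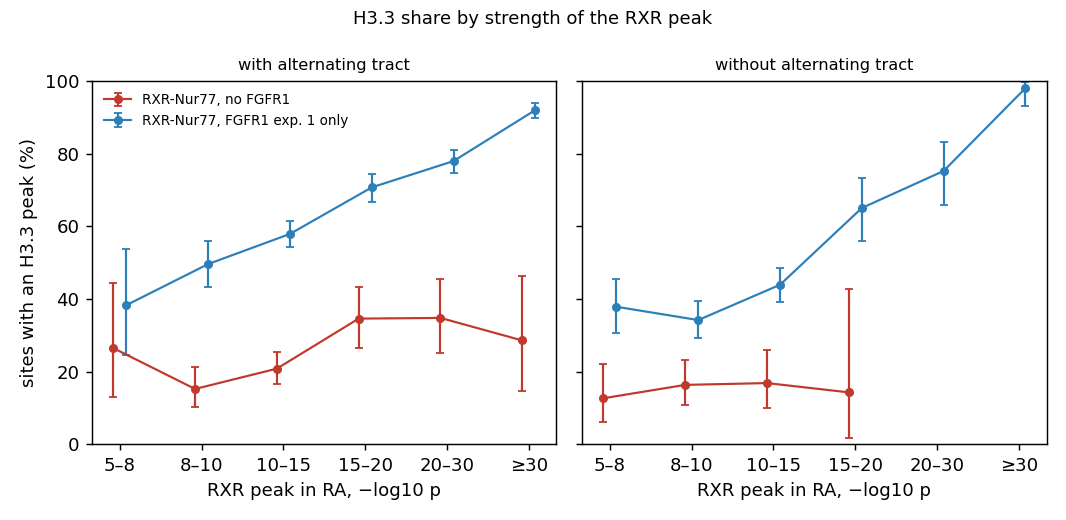
Share of sites with an H3.3 peak in RA (%) by −log10 p of the RXR peak, for sites with (left) and without (right) an alternating tract, with exact 95% intervals; bins under 10 sites are left out. With a tract, the sites without FGFR1 stayed between 15.2% and 34.8%, while those with FGFR1 in experiment 1 alone went from 38.3% to 92.0%.

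Tract length and CpG at sites with a tract differed from those at sites with FGFR1 in experiment 1 alone, mainly at stronger peaks. CpG was counted over the whole RXR peak and not within the tract, and the part of peak width in it was not tested. Among the strongest tract sites, with an RXR −log10 p of 30 or more, a median peak held 3 CpG dinucleotides without FGFR1 (middle 50% from 2 to 5, n = 35) and 11 with it (7 to 18, n = 689). The longest alternating run was 52 bp (41 to 67) against 97 bp (62 to 140), and the peaks were 175 and 204 bp wide. This bin has no upper limit, and its RXR values reached 54.1 without FGFR1 and 172 with it. At values of 20 to 30 the medians were 3 (1 to 6) and 7 (4 to 11) CpG, and 53.5 and 66 bp. At 8 to 10 they were 2 (1 to 5) and 3 (1 to 6.25) CpG, and 44.5 and 45.5 bp, with quartiles that largely overlapped. From the weakest to the strongest peaks, the median run went from 34 to 52 bp without FGFR1 and from 44 to 97 bp with it. The CpG median went from 1.5 to 3 without FGFR1 and from 2 to 11 with it. Over all tract sites the median was 3 CpG (1 to 5) without FGFR1 and 6.5 (3 to 11) with it.

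**Figure D4:**
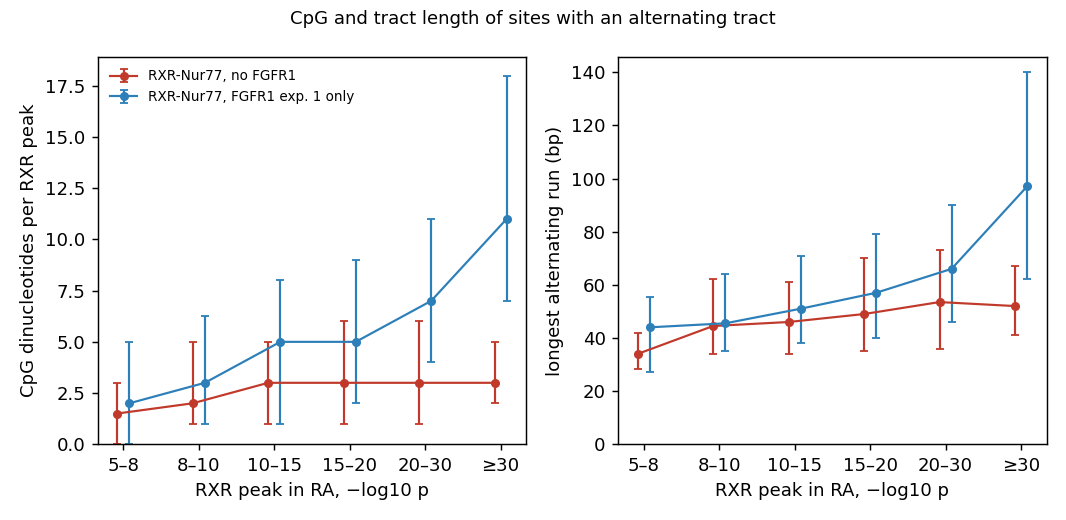
CpG dinucleotides per RXR peak (left) and longest alternating run in bp (right) of sites with a tract, by −log10 p of the RXR peak in RA; points are medians and bars span the middle 50%. Without FGFR1 the CpG median stayed between 1.5 and 3, and with FGFR1 in experiment 1 alone it went from 2 to 11.

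Motif words were searched on both strands within 50 bp of the RXR summit. The nuclear receptor half-site AGGTCA was at 26 sites (2.23%, 1.46 to 3.24), against 3.46% of all RXR peaks in RA. AAAGGTCA, the word that Nur77 binds alone and which contains AGGTCA, was at 0 sites, which allows up to 0.315%, and at 18 of all 15224 RXR peaks. Direct repeats of AGGTCA spaced by 1, 2, 4 or 5 bases, the form bound by RXR dimers, were also at 0 sites, and each spacing was at 0 to 2 of all RXR peaks. The E-box CACGTG, itself an alternating word, was at 101 sites (8.65%, 7.10 to 10.4), against 6.52% of all RXR peaks, and 87 of the 101 had a tract. The GC box GGGCGG was at 42 (3.60%, 2.60 to 4.83), against 13.7%. The cyclic AMP element TGACGTCA was at 2 sites (0.171%), the CTCF core at 1 (0.0856%) and the NRF1 word TGCGCATGC, also alternating, at 6 (0.514%), against 0.624%, 0.723% and 1.38% of all RXR peaks. AAGATGGCG for YY1 and CCGGAAGT for ETS factors were at 0, with the same upper limit as above, against 0.322% and 0.670%. At sites with FGFR1 in experiment 1 alone the half-site was at 2.09%, the E-box at 6.80% and the GC box at 4.53%. The cyclic AMP element was there at 0.115%, the CTCF core at 0.437%, the NRF1 word at 0.988%, the YY1 word at 0.0689% and the ETS word at 0. Low shares against all RXR peaks were thus not particular to sites without FGFR1. A word is a match of letters only and does not show a binding site.

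The LIF libraries, also outside the rule, showed how many sites carried the factors in pluripotent cells. RXR was called at 459 sites (39.3%, 36.5 to 42.2), against 50.1% of all RXR peaks in RA. Nur77 was at 375 (32.1%, 29.4 to 34.9), against 37.8%, and FGFR1 at 284 (24.3%, 21.9 to 26.9), against 28.4%. At sites with FGFR1 in experiment 1 alone these shares were 72.9% (71.6 to 74.2), 68.6% (67.2 to 70.0) and 52.6% (51.1 to 54.1). At 486 sites (41.6%, 38.8 to 44.5) no factor was called in LIF, compared with 13.5% (12.5 to 14.5) in that class, 38.0% (37.2 to 38.8) of all RXR peaks in RA and 56.7% (55.6 to 57.7) of RXR peaks without Nur77. RXR alone was called at 181 sites, Nur77 alone at 124, FGFR1 alone at 61 and all 3 together at 120 (10.3%). Of the 284 sites with FGFR1 in LIF and not in RA, 265 had a tract, so FGFR1 in LIF was at 32.2% of tract sites (29.0 to 35.5) and 4 of 133 promoter sites without a repeat (3.01%, 0.825 to 7.52). Where FGFR1 was called in LIF and, in RA, in experiment 1 alone, 1863 of 2287 sites had a tract. Tracts were in 51.7% of all FGFR1 peaks in LIF. LIF had its own set of RXR-Nur77 sites without FGFR1, 4776 of 8764. Of these 4776, 1663 (34.8%) had an RXR peak in RA and 1076 (22.5%) an RXR-Nur77 site in RA. Only such RXR-Nur77 sites could lack FGFR1 in RA by the rule, and 91 of the 4776 held a site that did. FGFR1 in LIF had 11378 peaks, against 46137 and 14082 in the RA experiments, and the part of this in the LIF shares was not tested.

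**Figure D5:**
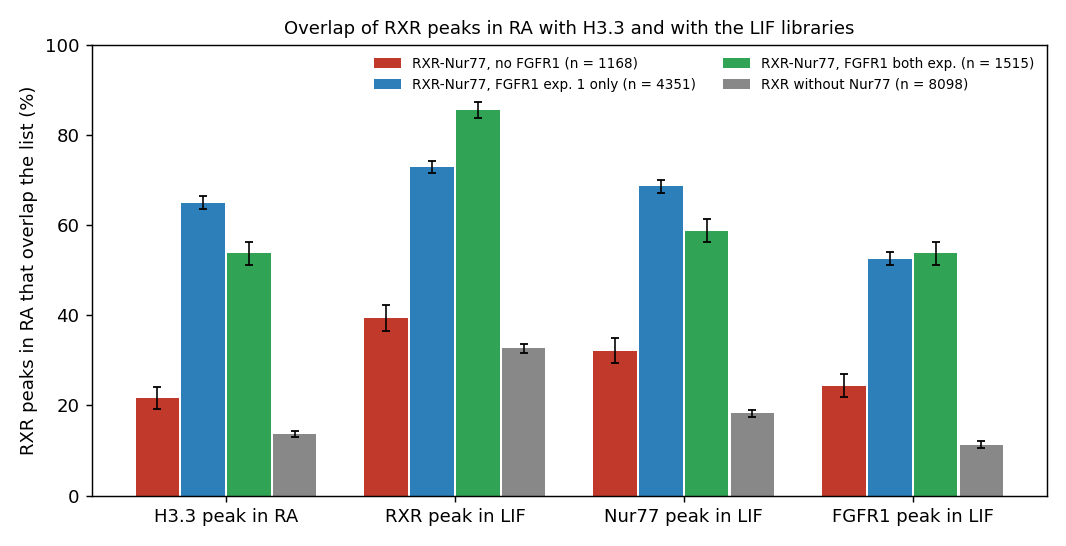
Share (%) of RXR peaks in RA that overlapped an H3.3 peak in RA or an RXR, Nur77 or FGFR1 peak in LIF, for 4 classes of RXR peaks; bars are shares and error bars exact 95% intervals. Sites without FGFR1 were at 21.6%, 39.3%, 32.1% and 24.3%, above RXR peaks without Nur77. In all 4 lists they were lower than sites with FGFR1 in experiment 1 alone and sites with FGFR1 in both experiments. This did not hold for the 92 sites with FGFR1 in experiment 2 alone, which are outside these classes. Their shares were 25%, 67.4%, 29.3% (20.3 to 39.8) and 26.1%, so Nur77 in LIF was lower there.

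By the weaker of both receptors, the 4 strongest sites with a tract lay in Agxt2, near Cbln4, in Ppp2r2b and near Diaph2. At Agxt2, which encodes an aminotransferase, the −log10 p in RA was 47.4 for RXR and 46.8 for Nur77, over 32 fragments at each summit, and in LIF it was 25.1 for RXR and 11.8 for Nur77. H3.3, and FGFR1 in LIF, had no peak there, and the nearest FGFR1 peak in RA was 97443 bp away. The intergenic site chr2:171792051-171792234, nearest to Cbln4 of the cerebellin family at 251316 bp, had the highest RXR value of the sites, 54.1, with Nur77 at 41.1 and H3.3 at 9.17. In LIF it carried RXR at 29.9, Nur77 at 30.5 and FGFR1 at 18.4. A site on the X chromosome nearest to the formin gene Diaph2, 1566763 bp away, had 31.1 for RXR and 46.2 for Nur77, and in LIF 22.0 for RXR and 17.7 for Nur77. The site in an intron of Ppp2r2b, a regulatory subunit gene of protein phosphatase 2A, on chromosome 18 had RXR at 33.6, Nur77 at 34.8 and H3.3 at 16.9, no factor in LIF, and an FGFR1 peak 3584 bp away. Of the 4 sites, those near Cbln4 and in Ppp2r2b carried H3.3, and the one near Cbln4 alone carried FGFR1 in LIF.

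The Creb1 site shown above lay in an intron of the gene for the cyclic AMP response factor CREB, 4305 bp from a start. RXR reached a −log10 p of 28.3 in RA, Nur77 43.4 and H3.3 14.4. In LIF, FGFR1 had 35.3 and Nur77 10.4, and RXR was not called. FGFR1 was therefore called at this site in pluripotent cells and not in RA, where its nearest peak was 29286 bp away.

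Proximal promoters of 164 of 21924 protein-coding genes (0.748%) held a site. By the weaker of both receptors the strongest was in Lrrc2, 622 bp from its start, with RXR at 23.5, Nur77 at 23.2 and H3.3 at 13.6, and FGFR1 in LIF at 10.8. Muc2, which encodes the intestinal gel-forming mucin, had RXR at 44.9 and Nur77 at 23.1, 147 bp from its start, and no other factor. Arid2, a subunit gene of the PBAF chromatin remodeller, had RXR at 37.8, Nur77 at 16.2 and H3.3 at 10.7, and in LIF RXR at 13.8 and FGFR1 at 33.1.

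At Pard3, which encodes a cell polarity scaffold, RXR was at 24.5, Nur77 at 22.5 and H3.3 at 13.4, and all 3 factors were called in LIF, with RXR at 49.2, Nur77 at 22.3 and FGFR1 at 36.4. At Cacng3, an auxiliary subunit of AMPA receptors, RXR was at 24.2, Nur77 at 17.5 and H3.3 at 8.97. In LIF the Cacng3 site had the strongest FGFR1 peak of the 284, 71.4, with RXR at 23.9 and Nur77 at 37.8, and in RA an FGFR1 peak lay 37 bp from its edge. The Cacng3 value thus turns on a narrow gap, whereas the nearest FGFR1 peak was 9606 bp from the Pard3 site.

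The other promoter sites named by strength were Plekha2, Etl4, Ralgapa2, Strada, Arhgef15, Foxp4 and Mlip. Their RXR −log10 p ran from 16.9 at Ralgapa2, a subunit gene of a Ral GTPase activator, to 37.1 at Mlip, a partner of lamin A. Their Nur77 values ran from 14.3 at Mlip to 23.0 at Plekha2, an adaptor that binds phosphoinositides. H3.3 was called at Plekha2 (10.2) and at the forkhead factor gene Foxp4 (13.2) and at none of the other 5. The Arhgef15 site was the only one of the 12 without a tract, and an FGFR1 peak lay 4 bp from it. Its sequence was still an interrupted repeat of mostly T and G, with a longest alternating run of 17 bp and 46.9% G and C.

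Promoter sites without a tract stood apart from the rest by sequence and by how near FGFR1 was. Of the 195 promoter sites, 139 had no tract, and 133 of these had no tandem repeat of 20 bp. In these 133 the median was 69.6% G and C with 14 CpG, and the median RXR −log10 p was 8.74 against 12.6 at tract sites. FGFR1 lay within 200 bp of 62 of the 139 (44.6%, 36.2 to 53.3) and within 1000 bp of 83 (59.7%, 51.1 to 67.9). With a tract this was 7 (12.5%, 5.18 to 24.1) and 15 (26.8%, 15.8 to 40.3) of 56. Of 2030 promoter RXR-Nur77 sites without a tract, 139 (6.85%) lacked FGFR1 by overlap and 56 (2.76%) had none within 1000 bp. The promoter share depended on the setting: it was 9.53% with RXR and Nur77 at a −log10 p of at least 10, 9.39% with equal lists, 10.0% with no FGFR1 within 500 bp and 41.0% without tract peaks.

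Gene groups linked to RA and to these receptors held few sites, as did the annotation at large (0.748%). The lists were drawn up with earlier results of these data known, so they are no independent evidence. No promoter of the 20 retinoid genes (receptors, RA synthesis and breakdown), 15 pluripotency genes, 39 Hox genes, 14 FGF pathway genes, 13 immediate early genes, 19 CREB and coactivator genes or 14 mesodermal genes held a site. The pluripotency, FGF and immediate early promoters held 0 RXR-Nur77 sites of any kind, so their result was fixed. Any such site was at 1 retinoid, 2 Hox, 4 CREB and coactivator and 2 mesodermal genes, against 10.2% of protein-coding genes. Among 43 other nuclear receptors 1 promoter held a site without FGFR1, that of Pparg, a fat cell regulator, with RXR at 8.28 and Nur77 at 8.82. Its Nur77 peak met the RXR peak only at the edge, with summits 185 bp apart, and an FGFR1 peak lay 223 bp away.

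Among 18 neural genes it was 1, Map2, which encodes a microtubule protein of dendrites. The Map2 site had RXR at 11.6 and Nur77 at 22.4, with H3.3 and the LIF libraries at no peak and FGFR1 no nearer than 154726 bp. Of 102 genes matched as ribosomal by symbol it was 2, Rpl13 (RXR 8.46, Nur77 9.50) and Rps6kb1 (11.3 and 7.26), and the latter encodes a kinase of a ribosomal protein and no ribosomal protein. At both, FGFR1 peaks of experiment 2 lay 131 and 122 bp away. Of 365 Zfp genes, a zinc finger family, it was 2, Zfp738 (10.0 and 11.2) and Zfp777 (8.12 and 15.6, with H3.3 at 11.7).

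Away from promoters, 5 sites lay in the bodies of listed genes, namely Creb1 as given above, the oestrogen receptor gene Esr1, the orphan receptor gene Rorb, Zfp112 and, listed by its symbol, Rps6kc1. The Esr1 site, chr10:4893905-4894040, had a 108 bp alternating run, RXR at 14.99 and Nur77 at 9.79. The Rorb site, chr19:18936313-18936428, had a 35 bp run, RXR at 8.43 and Nur77 at 14.3. Neither of these carried H3.3 or a factor in LIF. The Zfp112 site had RXR at 7.60 and Nur77 at 8.01, with Nur77 called in LIF, and the Rps6kc1 site had 13.5 and 13.3, with FGFR1 called in LIF. Distal promoter sites lay within Zfp395, with RXR at 10.5 and Nur77 at 15.7 and with Nur77 and FGFR1 called in LIF, and within the annotated span of Fgfr2. The latter was 145031 bp from the nearest protein-coding start, had RXR at 10.99 and Nur77 at 14.01, and had RXR called in LIF. Of these 7 sites H3.3 was called at Creb1 alone, and they were chosen after their values were seen.

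Outside promoters 205 sites had no alternating tract, and 165 of these had no tandem repeat of 20 bp either. The strongest 8 of the 205 differed from most of them, since 6 were on a tandem repeat of another kind. At Ntrk3, the gene of the neurotrophin-3 receptor, RXR was at 24.97, Nur77 at 24.1 and H3.3 at 28.9, and in LIF RXR was at 10.5 and Nur77 at 24.8. Epha7, an ephrin receptor gene, had a 27 bp repeat of the same unit, RXR at 19.9, Nur77 at 17.4, H3.3 at 10.9 and, in LIF, Nur77 at 16.2. The Arhgef10l and Fam83a sites also had this unit, over 42 and 37 bp, with RXR at 14.6 and 13.8 and Nur77 at 14.6 and 24.2, and without H3.3. The 4 sites on AGGC repeats thus differed in H3.3.

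At Fgf12, which encodes an intracellular FGF homologue that acts on sodium channels, RXR was at 15.9 and Nur77 at 14.3 on a 49 bp repeat, with no other factor. The intergenic site nearest to Slc16a7, a monocarboxylate transporter gene, had RXR at 14.6, Nur77 at 34.6 and H3.3 at 15.3, and RXR at 13.2 in LIF. The remaining 2 of the 8 had no tandem repeat of 20 bp. The one in 4930452B06Rik on chromosome 14 had RXR at 14.9, Nur77 at 14.3 and RXR in LIF at 18.97. The one nearest to Smad2, a TGF-β signal transducer gene 100515 bp away, had RXR at 14.2, Nur77 at 18.8, H3.3 at 13.8 and Nur77 in LIF at 9.63.

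Sites by repeat class differed most in FGFR1 in LIF. It was called at 32.2% of the 824 tract sites, 15.2% (6.34 to 28.9) of the 46 with another tandem repeat, 3.01% of the 133 promoter sites without a repeat and 4.85% (2.12 to 9.33) of the 165 elsewhere without a repeat. H3.3 was at 23.9% (21.03 to 26.97), 26.1% (14.3 to 41.1), 15.04% (9.43 to 22.3) and 13.9% (9.05 to 20.2) of these classes. RXR in LIF was at 41.0% (37.6 to 44.5), 30.4% (17.7 to 45.8), 45.9% (37.2 to 54.7) and 27.9% (21.2 to 35.4). Median RXR −log10 p was 12.6, 11.7, 8.74 and 8.46, so the classes also differed in strength, and its part in these shares was not tested. With FGFR1 in experiment 1 alone, FGFR1 in LIF was at 1863 of 3042 tract sites and 208 of 334 with another tandem repeat. It was at 78 of 424 promoter sites without a repeat in that group and at 138 of 551 elsewhere without one. More FGFR1 in LIF on repeats was thus not particular to sites without FGFR1 in RA.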

How the data were processed

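The authors aligned ChIP-seq reads to mm10 (GRCm38) with Bowtie 1.0, keeping reads with 1 place in the genome, and called peaks with MACS2 on each library alone, with p up to 1e-05 and, in the stated commands, no input library. The deposited lists give, per peak, a fold value, which is the ratio of fragments at the summit to the local background, and −log10 p and −log10 q at the summit. These deposited −log10 values ranked and filtered peaks. Fold and −log10 p were solved together, with a pseudocount of 1, for whole fragments at the summit. All peaks had a solution within 0.002. Background density, the measure of depth, ran from 1.27 to 7.09 fragments per kb, and the lowest summit in a list rested on 4 to 8 fragments. The number of reads sequenced is not given in the sources used here.

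Peaks matched by 1 bp. Annotation was GENCODE M21 (141767 transcripts), sequence the RefSeq GRCm38 assembly. Proximal promoters reached 1000 bp to either side of a start and distal ones 5000 bp upstream, with gene bodies next, each by a 20 bp overlap. Groups came from sample titles. Shares carry exact Clopper-Pearson 95% intervals, and neighbouring peaks are not independent. No p-value was computed. Named sites were those highest in the smaller of the RXR and Nur77 −log10 p: 12 in protein-coding promoters, 8 outside without a tract, 4 with a tract and 4 with H3.3, plus all in promoters of listed genes. The sites, gene lists and motif words were chosen with earlier results of these data known. Interval matching, tracts and the fragment solution were tested on simulated data. Python 3.11.15, numpy 2.4.6, pandas 2.3.3, scipy 1.17.1 and bedtools 2.31.1 were used. Alternatives varied the FGFR1 libraries, peak thresholds, overlap, list length, tract peaks, chromosomes, promoter width and tract length.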

Additional observations from a re-analysis of the deposited data

How the results depend on the processing

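Leaving out 1 FGFR1 library in RA gave 1260 to 5519 sites, 17.7% to 77.4% of RXR-Nur77 sites, with 15.003% to 22.2% in proximal promoters, 65.8% to 70.0% with a tract, 21.8% to 55.8% with H3.3 and, in LIF, 41.3% to 65.8% with RXR, 31.9% to 60.9% with Nur77 and 24.4% to 46.6% with FGFR1. The high counts came without experiment 1, since sites with FGFR1 in it alone then count as sites. No paired analysis was possible because no group compared shares 2 replicate numbers with another.

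With all lists at a −log10 p of at least 10 there were 737 sites, 11.3% in promoters, 87.1% with a tract, and 35.0% with Nur77 and 30.3% with FGFR1 in LIF. With this limit on RXR and Nur77 alone there were 577 sites, 12.9% of RXR-Nur77 sites, 9.53% in promoters, 90.1% with a tract, 27.7% with H3.3, and 43.3% with RXR, 36.2% with Nur77 and 28.8% with FGFR1 in LIF. Matching by 50% of the shorter peak gave 17.6% of RXR-Nur77 sites. Matching by summits gave 20.6%, with 23.7% in promoters, 64.2% with a tract and 24.6% with H3.3. Asking for no FGFR1 peak within 500 bp gave 14.0%, 10.0% in promoters and 77.0% with a tract. Equal lists gave 33.8%, 9.39% in promoters, 83.6% with a tract, 42.3% with H3.3, and 45.7%, 42.2% and 43.6% with RXR, Nur77 and FGFR1 in LIF.

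Without tract peaks there were 339 sites (10.6%), 41.0% in promoters, 16.2% with H3.3, and 34.8%, 23.3% and 5.60% with RXR, Nur77 and FGFR1 in LIF. Promoters of 500 bp held 12.5%, and tracts of at least 30 bp were in 60.4%. The cause of these changes was not tested. A −log10 q of at least 2 left every value unchanged, and the lowest value of any RXR peak in RA was already 2.31. Leaving out other chromosomes removed the 2 RXR-Nur77 sites on chromosome M, of which 0 lacked FGFR1. These 2 settings therefore say nothing about how stable the values are. FGFR1 in RA had 2 libraries and every other group 1, so for those the spread between cultures is unknown.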
